A study of Mus musculus with 2 samples.

Results

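The zinc finger protein family is described here through its transcripts in mouse fibroblasts, where RNA recovered with HP1 alpha, a protein of heterochromatin, was compared with input RNA. The members are all genes whose symbol in the count table starts with Zfp and a digit, Zbtb, Zscan, Zkscan or Zfhx. There were 40 members among 3134 listed genes: 32 Zfp, 5 Zbtb, 2 Zfhx, 1 Zkscan and 0 Zscan genes. Both libraries came from NIH3T3, an established mouse fibroblast line with no stated treatment or genetic change. By enhanced crosslinking and immunoprecipitation (eCLIP), ultraviolet light joins proteins to the RNA they touch, and RNA is sequenced from the protein pulled down by an antibody. The HP1 alpha group had 1 library made with an anti-HP1 alpha antibody, and the input group had 1 library labelled as having no antibody. No difference between the groups therefore has a replicate check, and no p-value was computed.

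Most zinc finger genes encode DNA-binding proteins built from repeated C2H2 fingers, in which paired cysteines and histidines hold a zinc ion. The largest branch carries a KRAB domain, which binds the corepressor TRIM28. TRIM28 in turn recruits the histone methyltransferase SETDB1 and HP1 proteins, and so links these factors to heterochromatin marked by H3K9 methylation. The Zbtb proteins carry a BTB domain for pairing and corepressor binding, the Zkscan proteins a SCAN domain with or without KRAB, and the Zfhx proteins several homeodomains beside their fingers. The symbol Zfp also covers proteins whose fingers bind RNA or that act outside transcription. What was measured here is the RNA of these genes and not their proteins.

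Few of the family's genes had a row in the table used here. RefSeq (GRCm38.p6) names 468 protein-coding genes by the same symbol rule, and 42 of them, or 8.97%, were listed, against 13.9% of all 21900 protein-coding genes. These 42 are the 40 members and 2 genes that the table lists under older symbols, Zfp512b (as Znf512b) and Zfp950 (as 5830428H23Rik). The table lists genes with at least 100 counts in the larger library. On chromosome 7, which holds 104 of the 468, 3 were listed, and on chromosome 13 it was 1 of 42. The listed members lay on 20 chromosomes with at most 4 on any of them. Their median gene span, from first to last base with introns, was 29.0 kb against 17.0 kb for the 426 family genes without a row and 48.2 kb for all listed genes.

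Sequence before the gene start was compared as a feature that the symbol rule does not use. RefSeq promoter sequences were at hand for 32 of the 40 members. In the 250 bases before the start, their median GC content was 60.6%, against 62.8% for 2547 listed genes and 52.0% for 27025 genes of the promoter table. The letters GGGCGG, on either strand, were present in 17 of the 32 (53.1%), in 67.1% of the listed genes and in 33.0% of all. The 4 sequences below belong to the members whose annotated start lies within 20 bases of the outer end of the gene and whose counting interval, defined below, excluded 1. They are shown as examples from both ends of the order: the ratio, defined below, was above 1 for Zfp618 and below 1 for the other three. Each is the 150 bases just before the gene, 5′ to 3′ on the gene's strand, from RefSeq (GRCm38.p6), with GGGCGG and its reverse complement CCGCCC in capitals.
Zfp618 (chr4:62965405-62965554, plus strand): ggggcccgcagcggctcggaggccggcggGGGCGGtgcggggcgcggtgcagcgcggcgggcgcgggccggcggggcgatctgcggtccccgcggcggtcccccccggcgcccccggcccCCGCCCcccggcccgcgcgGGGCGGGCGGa
Zfp106 (chr2:120563865-120564014, minus strand): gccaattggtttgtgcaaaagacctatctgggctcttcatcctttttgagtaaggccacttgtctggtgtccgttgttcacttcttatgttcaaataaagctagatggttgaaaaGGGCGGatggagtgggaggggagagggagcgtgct
Zfp207 (chr11:80383129-80383278, plus strand): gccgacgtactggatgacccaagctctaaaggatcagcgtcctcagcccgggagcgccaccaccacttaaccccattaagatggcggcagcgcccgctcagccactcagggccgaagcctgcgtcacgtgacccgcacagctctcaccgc
Zfp91 (chr19:12796124-12796273, minus strand): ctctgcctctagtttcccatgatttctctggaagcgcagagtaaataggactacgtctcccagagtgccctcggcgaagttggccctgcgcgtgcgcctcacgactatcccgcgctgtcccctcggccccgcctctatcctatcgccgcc
The Zfp618 stretch was 92.0% GC with 31 CpG dinucleotides and 4 matches, 2 of them overlapping. Zfp106 had 3 CpG and 1 match, whereas Zfp207 and Zfp91 had 13 and 14 CpG and 0 matches. The Zfp618 stretch does not stand for the members with high ratios. Of the 4 members with an interval above 1 and a promoter sequence, 1 held GGGCGG in its 250 bases, and Zbtb20 had 3 CpG there. A match is a run of letters and not a binding site.

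Counts were compared as shares of each library's listed total, 513965 for HP1 alpha and 830031 for the input. The ratio of a gene is its share in HP1 alpha over its share in the input. Its 95% interval (exact, Clopper-Pearson) covers counting error only, since reads may include PCR copies and each group had 1 library. A gene was called higher or lower when its log2 ratio, taken with a pseudocount of 0.5 counts, passed 2-fold and its interval excluded 1. Of the 7 fibroblast markers listed out of 8 chosen, Fn1 and Col1a1 had the largest counts, while 0 of 6 immune, epithelial and endothelial markers were listed.

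No zinc finger family transcript was called at 2-fold between HP1 alpha and input, though Zfp260 lay at the limit and would be called lower without the pseudocount, as 1.02% of all genes were. Of the 40 members, 0 were higher and 0 were lower, against 74 higher (2.36%) and 26 lower (0.83%) of all 3134 listed genes. Both shares are so low that a count of 0 in 40 lies near the background. The members' ratios ran from 0.496 to 1.87, with a median log2 ratio of -0.14 against -0.21 for all genes. TMM and DESeq2 scaling, which assume that most genes do not differ, raise every log2 ratio by 0.20 and 0.21, which turned the family median to 0.062 and 0.073 and brought Zfhx3 past 2-fold, as they did 4.05% and 4.21% of all genes. At a limit of 1.5-fold, 4 members were higher (7.63% of all genes) and 3 were lower (12.3% of all). Differences between genes are the same under any scaling. Of the 2 genes listed under older symbols, Zfp512b was called lower, with 32 against 119 counts, for a ratio of 0.434 (0.284 to 0.646). Zfp950 was not called, with 80 against 129 counts, for a ratio of 1.00 (0.748 to 1.33). The HP1 alpha count of Zfp512b lies under 61.9, where the listing limit described below fixes a ratio under 1. Smaller differences were resolved in both directions. The interval lay above 1 for 8 members, against 15.4% of all genes, and below 1 for 7, against 32.6% of all. It held 1 for the other 25, whose ratios ran from 0.723 to 1.20. A ratio above 1 was found for 16 of the 40 and for 30.9% of all genes. Under TMM 22 members had a ratio above 1, 12 an interval above 1 (23.3% of all genes), and 3 (Zfp91, Zfp207 and Zfp260) an interval below 1 (13.7% of all).

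**Figure D1:**
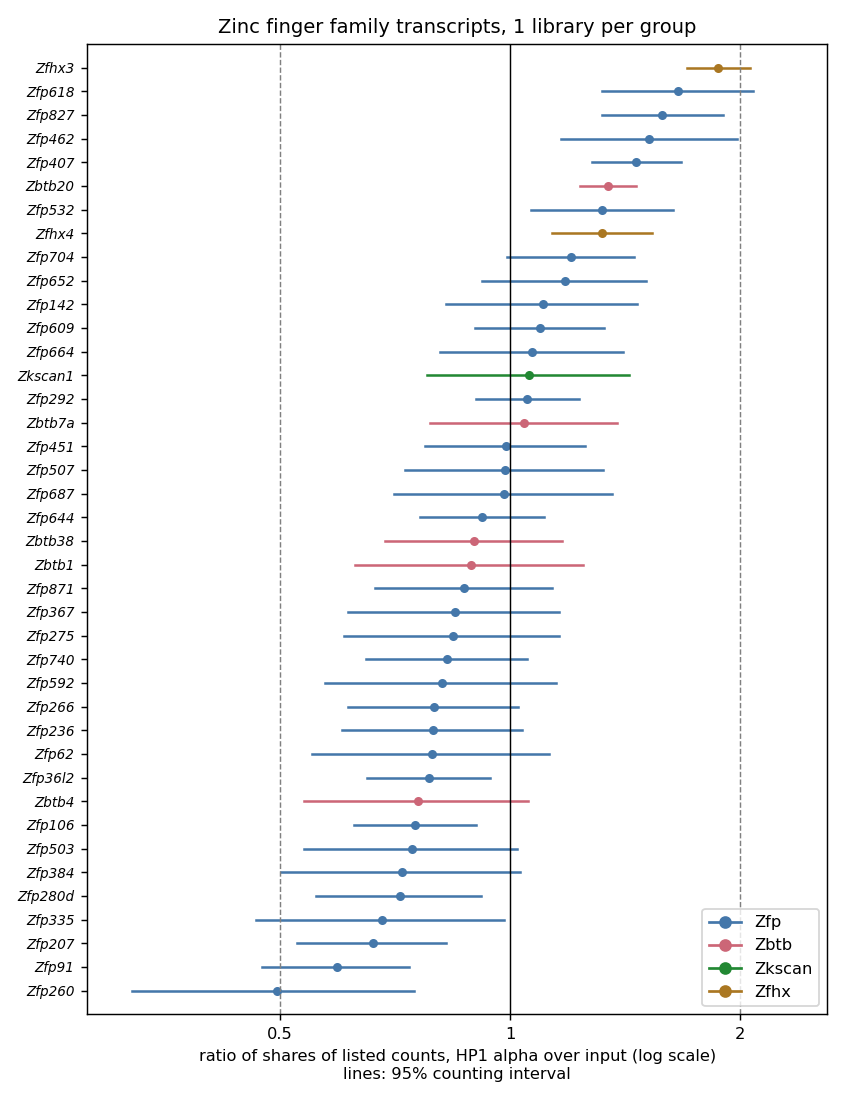
Ratio of HP1 alpha over input for the 40 zinc finger family transcripts on a log scale, ordered by ratio and coloured by symbol prefix, with 95% counting intervals (lines) from 1 library per group and dashed lines at 2-fold. From Zfhx3 at 1.87 to Zfp260 at 0.496, 8 intervals lie above 1, 7 lie below 1, and 25 cross it.

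The 8 members with intervals above 1 held 51.5% of the family's HP1 alpha counts and 38.0% of its input counts. The larger share in HP1 alpha follows from choosing them by their ratio. Zfhx3, also known as Atbf1, encodes a very large factor with fingers and homeodomains, and lies on chromosome 8 from 108279311 to 108961636 (GRCm38.p6), where RefSeq places 8 lncRNA genes within or across its span. It had 961 HP1 alpha counts and 829 input counts, the only one of these 8 besides Zfp618 with more raw counts in HP1 alpha. Its ratio of 1.87 (1.70 to 2.06) exceeded that of 96.8% of the rest of the table. Zfhx4, its relative with the same domain plan, had 321 and 393 counts, for a ratio of 1.32 (1.13 to 1.53). The ratio of Zfhx3 was 1.42 times that of Zfhx4 (1.19 to 1.70, exact conditional interval), a comparison within the same libraries that no scaling can move.

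Among the Zfp genes, the highest was Zfp618, whose product is a partner of the ring finger protein UHRF2. It had 160 counts against 156 and a ratio of 1.66 (1.32 to 2.08). Zfp827, whose product recruits the NuRD remodelling complex, had 239 against 244 counts, for a ratio of 1.58 (1.32 to 1.90). Zfp407 had 422 against 466 counts, for a ratio of 1.46 (1.28 to 1.67). These genes lay close to equal raw counts in the 2 libraries, where most listed genes had more counts in the input.

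Zinc finger proteins that work with H3K9 methyltransferases did not share one value. Zfp462, a partner of the G9a/GLP enzymes and HP1, had 113 against 120 counts, for a ratio of 1.52 (1.17 to 1.98). Zfp644, which joins the same enzymes together with WIZ, had 180 against 316 counts, for a ratio of 0.920 (0.762 to 1.11). The ratio of Zfp462 was 1.65 times that of Zfp644 (1.19 to 2.29). Relative to genes of like span, described below, their log2 values were 0.51 and 0.04.

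A trio of related genes whose products assemble with the chromatin reader ZMYND8 also spread. Zfp532 had 161 against 197 counts, for a ratio of 1.32 (1.07 to 1.63). Zfp687 had 62 against 102 counts and 0.982 (0.704 to 1.36). Zfp592 had 52 against 103 counts and 0.815 (0.573 to 1.15). Zfp532 was 1.62 times Zfp592 (1.07 to 2.45) and 1.34 times Zfp687, the latter with an interval of 0.906 to 2.0 that holds 1. Relative to genes of like span, described below, the log2 values of Zfp532, Zfp687 and Zfp592 were 0.41, 0.31 and -0.04. Their spans were 109, 21.3 and 51.5 kb. The span of Zfp687 overlaps that of Pi4kb, which was also listed, so reads there could have been counted for either gene or for neither.

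Of the 5 BTB genes, Zbtb20 had the highest ratio, though the lowest relative to genes of its own span. Zbtb20, a repressor of fetal genes in liver and a factor of the hippocampus, lies on chromosome 16 from 42875689 to 43634392. It had 990 against 1191 counts, for a ratio of 1.34 (1.23 to 1.46). The methyl-CpG binding factors Zbtb4 and Zbtb38 had 0.758 (0.538 to 1.06) and 0.897 (0.686 to 1.17), from 54 against 115 and 90 against 162 counts. Zbtb7a, also known as Lrf, had 86 against 133 counts and 1.04 (0.787 to 1.38). Zbtb1, a factor of lymphocyte development, had 55 against 100 counts and 0.888 (0.627 to 1.25). The ratio of Zbtb20 was 1.49 times that of the other four combined (1.25 to 1.77), while each of these had an interval that held 1. Relative to genes of like span, described below, the log2 value of Zbtb20 was -0.12, against -0.04 for Zbtb4, 0.10 for Zbtb38, 0.16 for Zbtb1 and 0.43 for Zbtb7a.

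Among genes known to encode a KRAB domain, Zkscan1 and Zfp266 were members. Zkscan1, with SCAN and KRAB domains, had 74 against 113 counts, for a ratio of 1.06 (0.778 to 1.43). Zfp266, a KRAB gene, had 94 against 191 counts and 0.795 (0.614 to 1.02). Neither interval excluded 1, and the 1.33-fold difference between them had an interval of 0.890 to 1.99. The domain types of the remaining members were not assigned here, so no value is given for KRAB genes as a class.

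At the low end of the order, 4 of the 7 members with intervals below 1 encode proteins best known for work outside transcription, a grouping made after the values were seen. Zfp91, a ubiquitin ligase of the noncanonical NF-kB pathway, had 112 against 305 counts, for a ratio of 0.593 (0.473 to 0.739). Zfp207, also known as BuGZ, a partner of the spindle checkpoint protein BUB3, had 115 against 281 counts and 0.661 (0.527 to 0.824). The RNA-binding protein gene Zfp106 had 176 against 378 counts and 0.752 (0.625 to 0.902). Zfp36l2, a CCCH finger gene whose product binds AU-rich elements and speeds mRNA decay, had 175 against 361 counts and 0.783 (0.650 to 0.940). Zfp451, a SUMO ligase gene of the same grouping, did not go with them: it had 113 against 185 counts and 0.986 (0.774 to 1.25), or 1.66 times the ratio of Zfp91 (1.19 to 2.32). Under TMM the intervals of Zfp106 and Zfp36l2 held 1. Relative to genes of like span, the interval of Zfp91 alone of these 5 lay below.

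The other three with intervals below 1 were Zfp260, Zfp335 and Zfp280d. Zfp260, on chromosome 7 from 30094782 to 30107622, was lowest, with 31 against 101 counts, for a ratio of 0.496 (0.320 to 0.748), above that of 0.798% of the rest of the table. With the pseudocount its log2 ratio was -0.997 and came just short of the 2-fold limit. At the other end, Zfhx3 was the member nearest to that limit, with a log2 ratio of 0.90. Zfp335, a gene linked to microcephaly, had 43 against 102 counts and 0.681 (0.465 to 0.981), and Zfp280d had 95 against 214 counts and 0.717 (0.557 to 0.917).

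The listing limit bears on the low end. A gene with fewer than 61.9 counts in HP1 alpha could be listed only through an input count of 100 or more, which fixes its ratio below 1. This held for 9 of the 40 members, against 16.2% of all genes. They were Zfp592, Zbtb4, Zfp275, Zbtb1, Zfp384, Zfp503, Zfp335, Zfp62 and Zfp260, so the direction of Zfp335 and Zfp260 was set by the table and only their size was free. No member had fewer than 100 counts in the input, so no ratio above 1 was fixed this way. With fewer than 100 HP1 alpha counts, 21 of the 40 were listed only through the input, which limits how high their ratio could be. Zfp280d was among them. The share of all genes listed only through the input was not counted, so the 21 cannot be read as a trait of the family. The median HP1 alpha count was 94.5 in the family and 107 over all listed genes.

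**Figure D2:**
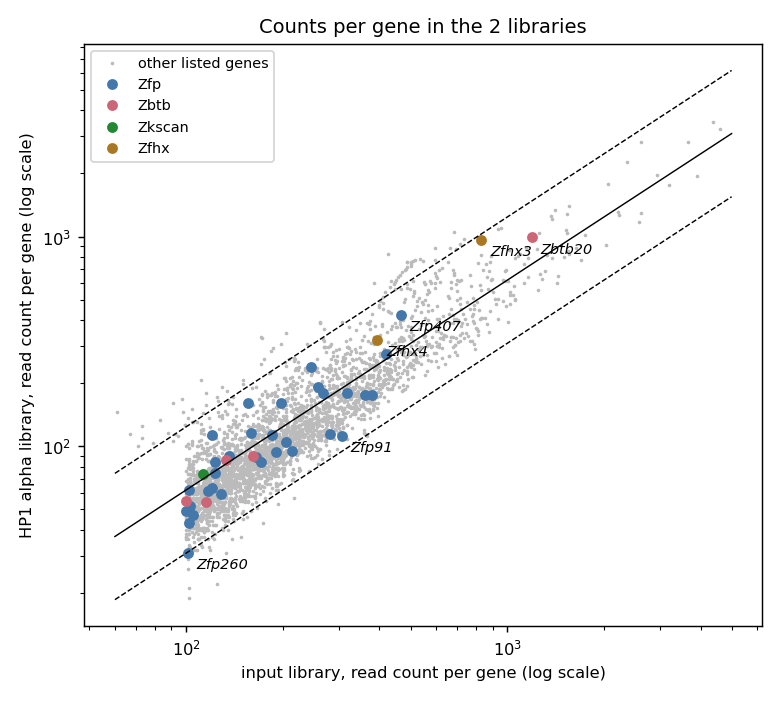
Read count per gene in the input (horizontal) and the HP1 alpha library (vertical), both on log scales, for the 40 family members (coloured by prefix) and the other listed genes (grey), with a solid line at equal shares and dashed lines at 2-fold. The members lie between the dashed lines apart from Zfp260, which sits on the lower line (31 and 101 counts), with Zfhx3 nearest to the upper one (961 and 829), and the left edge of the grey cloud shows the limit of 100 counts.

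As a whole the family took 1.27% (1.24 to 1.30, exact binomial) of the listed HP1 alpha counts and 1.14% (1.12 to 1.16) of the input. The counts were 6541 and 9453, a ratio of shares of 1.12 (1.08 to 1.15). This rested on a few genes with large counts. Zfhx3, Zbtb20, Zfp407 and Zfhx4 held 41.2% of the family's HP1 alpha counts and 30.5% of its input counts. Without these 4, the ratio of shares was 0.945 (0.908 to 0.984), on the other side of 1. Under TMM it was 1.08 (1.04 to 1.13), where the same ratio over all listed genes was 1.15. The pooled ratio of these 36 members thus lay below the whole table, from which no large-count genes were taken out. Gene by gene they did not lie below: their median ratio was 0.880, against 0.865 for all listed genes.

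The ratio was larger in members with longer genes, as in the table as a whole. Across the 40 members, Spearman's rho between ratio and span was 0.59, and it was 0.61 across all 3089 genes with a span. Without the 3 longest members it was 0.49. These are correlations across genes of the same 2 libraries, which are not replicates. All 8 members with an interval above 1 spanned at least 109 kb, and all 7 with an interval below 1 spanned at most 89.2 kb. So clean a split did not hold in the table as a whole. Hoxb6, with a span of 8.76 kb, had an interval above 1 (1.02 to 1.76). Trps1, with a span of 236 kb, had an interval below 1 (0.802 to 0.946). The 7 members between 100 and 200 kb had a median ratio of 1.32, against 1.07 for 483 listed genes of that size. The 21 members between 10 and 50 kb had 0.848, against 0.793 for 1301 genes.

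**Figure D3:**
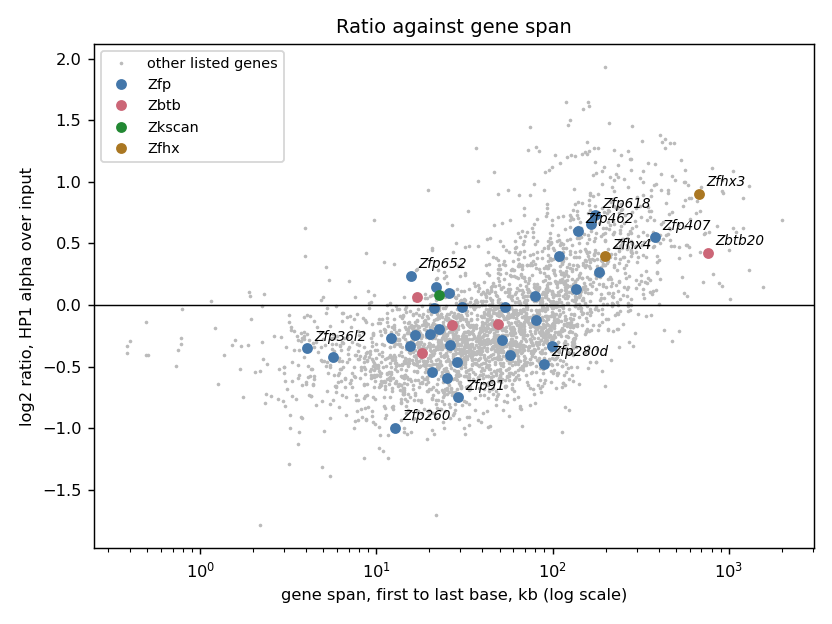
Log2 ratio of HP1 alpha over input against gene span in kb (log axis) for the 40 members (coloured by prefix) and the other listed genes (grey). The 10 members of 100 kb or more lie above 0, and the lowest value, Zfp260 at -0.997, belongs to a gene of 12.8 kb.

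Relative to genes of like span, the order within the family changed. Each member was set against the median of the 200 listed genes nearest to it in span, an alternative whose use was chosen with the trend known. After this, 27 of 40 members lay above that median, against 50.7% of all genes. The interval lay above the median for 10 members (15.4% of all genes) and below it for 2 (11.8% of all). The 10 were Zfp652, Zfp462, Zfp142, Zbtb7a, Zfp664, Zfp618, Zfp532, Zfhx3, Zfp827 and Zfp292, and the 2 were Zfp91 and Zfp280d. None passed 2-fold, against 1.23% higher and 0.129% lower of all genes.

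Zfp652, a partner of the corepressor CBFA2T3, had the largest excess, with 116 against 159 counts, a ratio of 1.18 (0.919 to 1.51) and a log2 value of 0.64 above genes of its span of 15.6 kb. Zfp462 followed with 0.51, and Zfp142 with 0.48. Zfhx3 kept an excess of 0.38. For Zbtb20, Zfp407 and Zfhx4 the excess was -0.12, 0.05 and 0.04, so their ratios lay near the median of listed genes as long as they are. At the other end Zfp91 moved from -0.75 to -0.43 and Zfp280d from -0.48 to -0.39, both still with intervals below. Zfp36l2, with a span of 4.02 kb, moved from -0.35 to 0.11. The spans are those of RefSeq, which can differ from those used in counting.

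**Figure D4:**
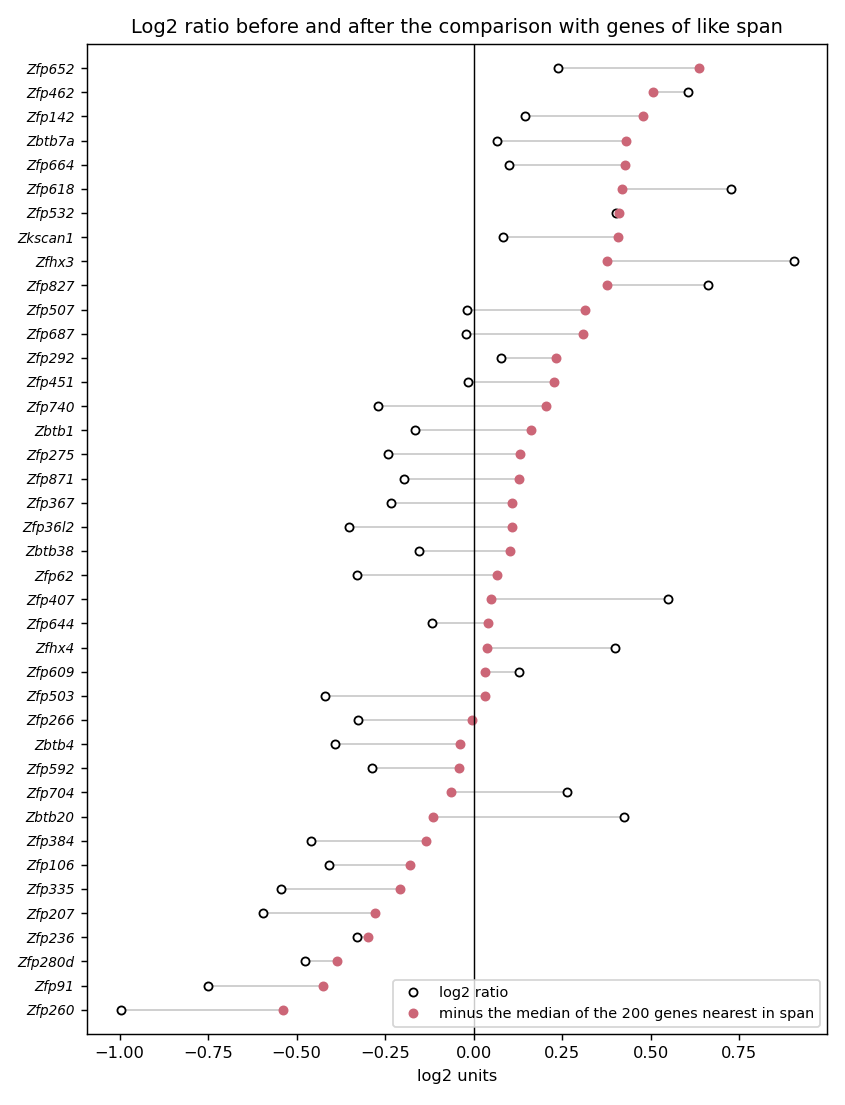
Log2 ratio of each member (open circles) and the same value minus the median of the 200 listed genes nearest in span (filled circles), ordered by the latter. Zfp652 moves from 0.24 to 0.64 and Zbtb20 from 0.42 to -0.12.

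Other genes lie inside the spans of many members. In RefSeq, 23 of the 40 overlap at least 1 other gene apart from microRNA genes, mostly lncRNAs and pseudogenes. All 8 members with an interval above 1 are among these 23, as are 3 of the 7 with an interval below 1. Overlap with RefSeq genes was not counted for the rest of the table, so these counts have no background share. The 17 members without such an overlap had ratios from 0.496 to 1.10, with 0 intervals above 1 (15.4% of all listed genes) and 4 below (32.6% of all). Overlap and length go together here, since the 17 spanned at most 99.3 kb. Among the 30 members of up to 100 kb, the 13 with an overlap had a median ratio of 0.827 and the 17 without had 0.842, and neither set had an interval above 1. Above that length no member was free of overlap, so the share of overlapping genes in the ratios of the long members was not tested. Only Zfp687 overlapped another listed gene.

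Zinc finger transcription factors under other symbols had a higher median ratio. Of 70 such genes chosen for comparison 31 were listed. Of these, 1 was higher (2.36% of all listed genes) and 0 were lower (0.83% of all). The interval lay above 1 for 9 (15.4% of all) and below 1 for 3 (32.6% of all). The median log2 ratio of the 31 was 0.15, and their median span was 76.1 kb against 29.0 kb in the family. The one called was Glis1, with 168 against 97 counts, for a ratio of 2.80 (2.17 to 3.63), a gene listed only through its HP1 alpha count. Mecom had 2269 against 2358 counts, for a ratio of 1.55 (1.47 to 1.65). Glis3, with 1.45 (1.35 to 1.56), and Bnc2, with 1.16 (1.04 to 1.29), also lay above 1, whereas Trps1 had 0.871 (0.802 to 0.946), and 1.01 under DESeq2 scaling. Relative to genes of like span, the list's median log2 value was 0.12 and that of the family was 0.11. The medians of the 2 lists were thus closer on that scale.

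Corepressors and chromatin proteins that zinc finger proteins work with had a lower median ratio. Of 40 such genes 24 were listed, with a median log2 ratio of -0.31. Of the 24, 0 were higher (2.36% of all listed genes) and 0 lower (0.83% of all). The interval lay above 1 for 4 (15.4% of all) and below 1 for 11 (32.6% of all). In the KRAB pathway, Trim28 had 162 against 335 counts, for a ratio of 0.781 (0.643 to 0.945), and Setdb1 had 64 against 153 and 0.676 (0.496 to 0.910). Setdb1 was listed only through its input count. Cbx5, which encodes HP1 alpha, had 429 against 780 counts and 0.888 (0.788 to 1.00), which turned to 1.02 under TMM. Ncor1, a corepressor gene of BTB proteins, had 0.639 (0.548 to 0.743). Chd4, the NuRD ATPase gene, had 0.751 (0.659 to 0.854). Relative to genes of like span the list's median was 0.01, with 12 of 24 above the median of such genes.

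**Figure D5:**
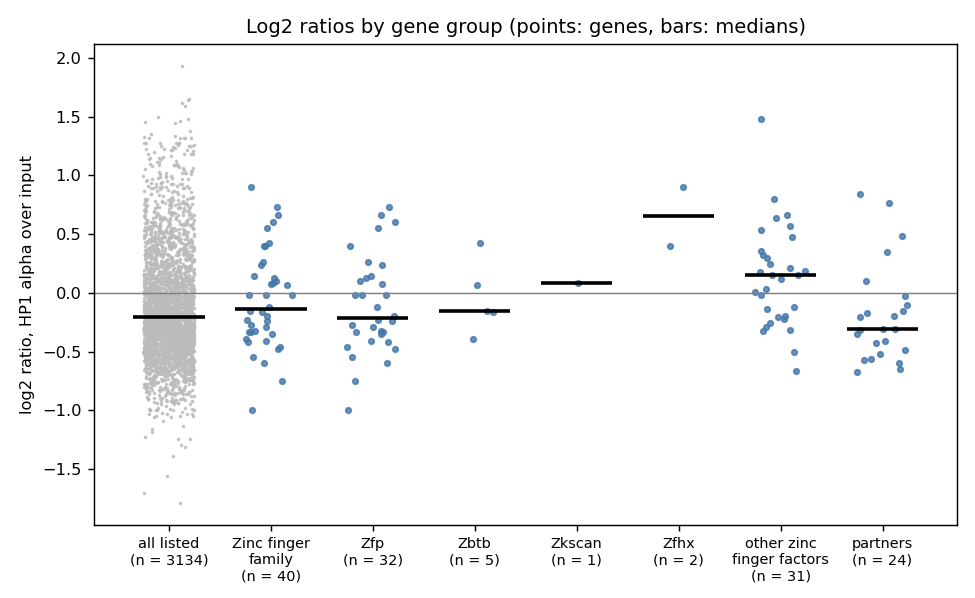
Log2 ratios of HP1 alpha over input by gene group, with 1 point per gene and a bar at the median, for all 3134 listed genes, the 40 family members, their prefix groups, 31 other zinc finger factors and 24 corepressor partners. The family median of -0.14, which turned to 0.062 under TMM scaling, lies between those of the other zinc finger factors (0.15) and the partners (-0.31), and the ranges of the 3 groups overlap.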

How the data were processed

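The authors deposited 1 table with read counts per gene for both libraries and a ratio column. The deposited counts are whole numbers, and STAR 2.6.0c, featureCounts and GRCm38 are named in the submitters' processing notes. For strand, the counted feature and duplicate removal, settings were not given in the sources used here. The deposited ratio is the count ratio times a constant of 1.66, which per the file headers stands for total mapped reads. The column names say MEF where the labels say NIH3T3, and mock where they say input. They were matched to the labels by HP1 and by the absence of antibody. Unassigned columns numbered 0.

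Counts were scaled to the listed totals, which are not sequencing depths. Log2 ratios used a pseudocount of 0.5. All 40 members matched RefSeq by symbol. The interval and call rule were tested on simulated counts with known changes. The simulation held counting error only, as the interval assumes, so it cannot bear on PCR copies or differences between libraries. Alternatives were TMM factors (edgeR 4.0.16), DESeq2 1.42.0 size factors, other totals, filters, pseudocount, overlap and span. Members, lists and naming rule (extremes, largest counts, each prefix, calls and those near the limits) were chosen with earlier results of these data known. The protein roles and the 5-gene grouping came from background knowledge. Protein sequences were not used here, so domains were not searched. Python 3.11.15 and scipy 1.17.1 were used.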

Additional observations from a re-analysis of the deposited data

How the results depend on the processing

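No paired analysis was possible because there is a single library on each side. The 0 higher members became 1 (Zfhx3) with TMM factors and 1 with DESeq2 size factors, which raise every log2 ratio and call 4.05% and 4.21% of all genes higher. At a 1.5-fold limit they became 4 (Zfhx3, Zfp618, Zfp827 and Zfp462; 7.63% of all genes), and the 0 lower members became 3 (Zfp260, Zfp91 and Zfp207; 12.3% of all). With no pseudocount, a choice made after seeing the data, the lower members became 1 (Zfp260; 1.02% of all genes). With members taken by RefSeq symbol, also chosen after seeing the data, they were 1 of 42, against 0.83% of all genes. That gene was Zfp512b, whose direction the listing limit fixed. The median log2 ratio of -0.14 changed sign to 0.062 with TMM, 0.073 with DESeq2, 0.022 at a minimum of 200 counts in the larger library (15 members), 0.34 at 400 (4 members) and 0.11 relative to genes of like span. Over all genes it moved to -0.0079 with TMM and 0.0040 with DESeq2. The ratio of shares, 1.12, was 1.28 with TMM, 1.29 with DESeq2 and 1.33 at a minimum of 400 counts. Restricted to the 17 members without an overlapping RefSeq gene, a choice made after seeing the data, the median was -0.24 and the ratio of shares 0.842. Only members were filtered here, and the 17 left spanned at most 99.3 kb, so overlap and length cannot be told apart. The intervals above and below 1, 8 and 7 as reported, were 12 and 3 under either TMM (23.3% and 13.7% of all genes) or DESeq2 (23.9% and 12.4%). The authors' constant, totals without the 10 most abundant genes, a pseudocount of 5, leaving out Zfp36l2 and leaving out genes that overlap a listed gene kept the count of calls at 0. The restriction to members with C2H2 fingers was not run, since no protein sequences were used. Counts near 100 limit precision: in the median member, the upper end of the interval was 1.68 times the lower end.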

Other observations

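Outside the genes described above, Zfp704 had 191 against 257 counts, for a ratio of 1.20 (0.990 to 1.45), and Zfp609, a partner of the cohesin loader NIPBL, had 180 against 266 and 1.09 (0.899 to 1.33). Both span over 100 kb, and they were the only members of that length with intervals that held 1. Per kb of span, Zfp36l2 had the densest counts of the family in both libraries, at 43.5 in HP1 alpha and 89.7 in the input, followed by the striatal factor gene Zfp503 at 10.5 and 22.7. Zfp462 had the lowest density in both libraries, at 0.813 and 0.863 counts per kb. These densities rest on RefSeq spans with introns and give a level only if reads were counted over whole genes, which was not given in the sources used here.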
